A study of Homo sapiens with 4 samples.

Results

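The T-box transcription factors described here are 8 of the 17894 genes listed for each library: T (the brachyury gene, TBXT in newer annotation), EOMES, TBX1, TBX2, TBX3, TBX5, TBX6 and TBX20. They were taken by gene symbol, with no measured value used to choose them. RNA-SEQ was performed on human cells from H1, a human embryonic stem cell line, after 2 days of hematopoietic differentiation on mAGM-S3, a mouse stromal cell line. Cells positive for TRA-1-85, an antigen of human cells, were sorted away from the stroma in all 4 libraries. The control library came from wild type H1 cells. The R-spondin2 library came from wild type H1 cells given 20 ng/mL of R-spondin2 for 1 day. The other 2 libraries came from cells labelled LGR4-/-, 1 library from each of 2 clones with no added R-spondin2. Each clone is a single line, and a difference between a clone and the control library cannot be told apart from a difference between lines.

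T-box proteins share a DNA-binding domain, the T-box, and act as activators or repressors of transcription. T and EOMES are switched on in the primitive streak, the place where epiblast cells become mesoderm and endoderm, downstream of WNT and NODAL signals. TBX6 follows in presomitic mesoderm, and the remaining genes are best known later, TBX3 and TBX2 as repressors in heart and limb, TBX1 in pharyngeal mesoderm, and TBX5 and TBX20 in the forming heart. R-spondins bind LGR receptors such as LGR4 and strengthen WNT signaling. The comparisons asked how the RNA of each T-box gene stood with added R-spondin2 and in cells in which LGR4 was targeted.

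Values are FPKM, a gene's fragments scaled by transcript length and library depth, so that levels of different genes can be set side by side. Each condition or clone had 1 library, so no difference below has a replicate check and no p-value is given. Read counts were not used here. The depth was estimated from the low FPKM, taken to be whole reads, as 8680000 to 8910000 reads per library. Of the low values, 76.3% to 77.7% then lay within 0.2 of a whole read. The depth was chosen to bring these same values close to whole reads, so this share is no separate check of it. Implied reads use the shortest listed transcript of each gene, which gives the fewest reads. The 95% Clopper-Pearson intervals of a ratio between libraries follow from these reads and cover counting error only, not the spread between cultures. LGR4 itself was at 21.8 FPKM in control, 24.3 FPKM with R-spondin2, 7.40 FPKM in clone 1 and 13.95 FPKM in clone 2, so its RNA was lower in the clones and still present. The 7 streak and mesoderm markers, T and EOMES among them, all had a mean of at least 1 FPKM, and their summed level ran from 375.1 FPKM in clone 1 to 1320 FPKM with R-spondin2. The 6 pluripotency markers were also present, with sums of 1333 FPKM in control, 1012 FPKM with R-spondin2, 2232 FPKM in clone 1 and 2013 FPKM in clone 2. The 5 blood and endothelium markers summed to at most 4.80 FPKM and none of them was at 0 in all libraries. Fibroblast and stroma markers, 5 of 6 at a mean of at least 1 FPKM, summed to 232.8 FPKM in control, 291.8 FPKM with R-spondin2, 213.2 FPKM in clone 1 and 244.0 FPKM in clone 2. The single markers did not share 1 order. COL1A2 (114.7, 153.0, 79.4 and 97.4 FPKM) and LUM (5.49, 9.11, 0.16 and 1.45 FPKM) had the same order of libraries as T. LUM was the 1 marker of the 5 at least 2-fold lower in both clones. Of all 12697 genes averaging 1 FPKM or more, 1.08% were. LUM reached this average mainly through control and R-spondin2. Its differences of log2(FPKM + 1) from control were -2.48 in clone 1 and -1.41 in clone 2. THY1 was lowest with R-spondin2 and higher than control in both clones (43.99, 36.1, 54.3 and 64.5 FPKM). In the mean of both clones, 2 of the 5 were lower than control and 3 were higher. The part of these marker differences in the T-box results was not tested. In a bulk sample, fewer streak cells and less RNA per cell cannot be told apart.

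Promoter windows of T, EOMES and TBX6 are shown first. These genes were above 1 FPKM in every library and had a RefSeq window, while TBX3, also above 1 FPKM, had none. RefSeq windows of GRCh38.p14 were available for 6 of the 8 genes, T, EOMES, TBX6, TBX1, TBX5 and TBX20, in 8 entries, and the 250 bases before each start were searched on both strands. The letters searched were TCACACCT for a T-box site, CTTTGAT for the core of a TCF/LEF site, AATCCACA for a FOXH1 site, TATAAA for a TATA box, AGATAA for a GATA core and CACCTG for an E-box, of which the T-box and E-box letters can overlap. Among all 35116 windows, these letters occurred in 0.786%, 2.26%, 0.709%, 10.7%, 9.17% and 17.5%. No motif overlapped another in the windows described. The TATA letters were found, on the opposite strand, 29 to 24 bases before a RefSeq start of T and 31 to 26 bases before the RefSeq start of EOMES, and EOMES also held an E-box 109 to 104 bases before its start. None of the 6 motifs was in the window of TBX6, TBX1, TBX20, either entry of TBX5 or the other entry of T, which says only that these letters are not there. Starts are those of RefSeq. The gene bounds given further on are those of GENCODE, which begins T and EOMES farther upstream, so that the printed bases of these genes lie inside the GENCODE gene, and those of TBX6 lie outside it. The lines give 30 bases, from 45 to 16 before the RefSeq start, 5′ to 3′ on the gene's own strand, with the TATA letters (read there as TTTATA) in capitals.
T, minus strand, chr6:166168671-166168700: ggcaacaagtcctgttTTTATAagagagcg
EOMES, minus strand, chr3:27722339-27722368: tcccccatcctgccTTTATAataaggccac
TBX6, minus strand, chr16:30091940-30091969: cctcagcgctgagcctgccgggaagtgtag

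The levels split the 8 genes into a pair of sets. EOMES, T, TBX6 and TBX3 were above 1 FPKM in every library and passed the filter of a mean of at least 1 FPKM, which kept 12697 genes. TBX20, TBX1, TBX2 and TBX5 stayed below 1 FPKM in every library and did not pass it. In the control library EOMES stood above 96.9% of all listed genes, T above 94.4%, TBX6 above 83.4% and TBX3 above 69.4%. Their order, EOMES highest and TBX3 lowest, was the same in all 4 libraries. The 4 low genes together made up less than 1% of the summed T-box FPKM of each library, the highest being TBX20 with 0.465% in clone 1.

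**Figure D1:**
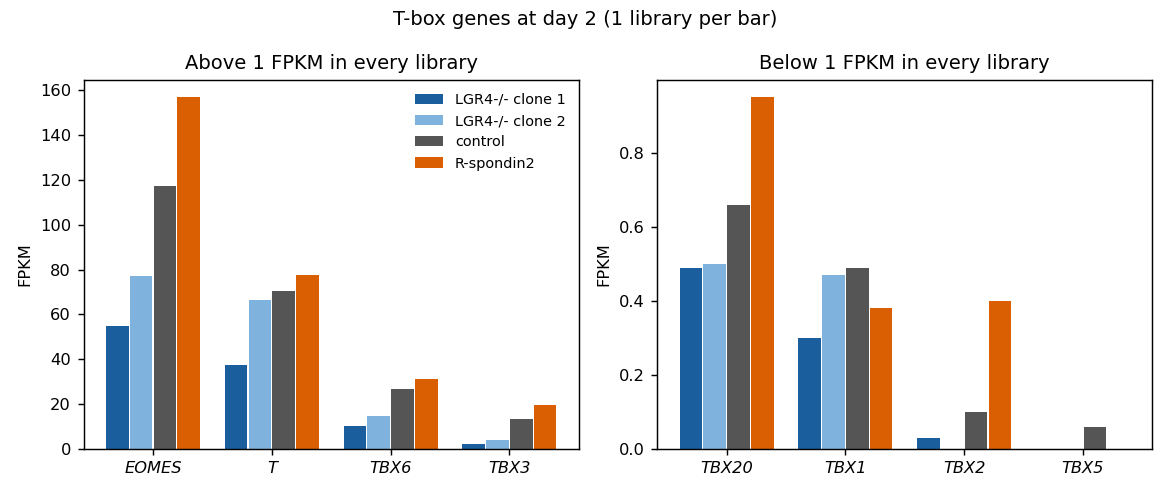
FPKM of the 8 T-box genes (vertical axes, linear, with separate scales) in LGR4-/- clone 1, LGR4-/- clone 2, control and R-spondin2, 1 library per bar. On the left, EOMES, T, TBX6 and TBX3 are lowest in clone 1 and highest with R-spondin2; on the right, TBX20, TBX1, TBX2 and TBX5 stay below 1 FPKM.

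EOMES, a T-box activator needed for endoderm and for the earliest mesoderm, was the highest of the family. EOMES (NCBI gene 8320; GRCh38 chromosome 3, 27715949 to 27722711, minus strand) was at 117.5 FPKM in control, 156.8 FPKM with R-spondin2, 54.6 FPKM in clone 1 and 77.1 FPKM in clone 2. The R-spondin2 library held 134% of the control level, clone 1 held 46.5% and clone 2 held 65.6%. At 2177 implied reads in control and 2831 with R-spondin2, the log2 ratio was 0.42 (interval 0.34 to 0.50). For clone 1 it was -1.10 (interval -1.21 to -0.997) and for clone 2 -0.61 (interval -0.71 to -0.51). The order was clone 1, clone 2, control and R-spondin2, and no neighbours in it had a counting interval that reached 0.

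T, the founding member of the family and a marker of streak and nascent mesoderm, was the second highest. T (NCBI gene 6862; chromosome 6, 166157656 to 166168700, minus strand) was at 70.3 FPKM in control, 77.8 FPKM with R-spondin2, 37.6 FPKM in clone 1 and 66.5 FPKM in clone 2. Clone 1 was thus at 53.5% of control, while clone 2 was at 94.6%. The log2 ratio of clone 2 to control was -0.08 with an interval of -0.19 to 0.03, from 1314 and 1409 implied reads, and any difference lay under what this depth can detect. Clone 1 was lower than control (log2 ratio -0.90, interval -1.03 to -0.77), and the R-spondin2 library was higher by a small margin (0.15, interval 0.04 to 0.25). The order was the same as for EOMES, with clone 2 and control not separated beyond counting error.

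TBX6, which directs streak cells to a presomitic mesoderm fate over a neural one, was at 26.7 FPKM in control, 31.2 FPKM with R-spondin2, 10.2 FPKM in clone 1 and 14.8 FPKM in clone 2. TBX6 (NCBI gene 6911; chromosome 16, 30085793 to 30091887, minus strand) is listed with 1 transcript, so its implied reads, 429, 488, 164 and 235, do not depend on the choice of transcript. Clone 1 stood at 38.3% and clone 2 at 55.6% of control. The log2 ratios were -1.39 (interval -1.65 to -1.12) and -0.85 (interval -1.08 to -0.61). With R-spondin2 the ratio was 0.22, with an interval of 0.03 to 0.41 whose lower end lies close to 0.

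TBX3, a repressor of the TBX2 subfamily that also acts in pluripotent and endoderm-forming cells, differed most from control among the 4 genes above 1 FPKM. TBX3 (NCBI gene 6926; chromosome 12, 114670254 to 114684164, minus strand) was at 13.1 FPKM in control, 19.8 FPKM with R-spondin2, 2.07 FPKM in clone 1 and 4.01 FPKM in clone 2. Relative to control this was 151% with R-spondin2, 15.8% in clone 1 and 30.6% in clone 2. Implied reads were 492, 722, 78 and 148 in the same order of libraries. The log2 ratio was 0.59 (interval 0.42 to 0.76) with R-spondin2, -2.66 (interval -3.02 to -2.31) in clone 1 and -1.71 (interval -1.99 to -1.44) in clone 2. TBX3 was the only 1 of the 4 higher genes in which the intervals of both clones against control lay wholly below -1, that is, below a 2-fold difference.

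**Figure D2:**
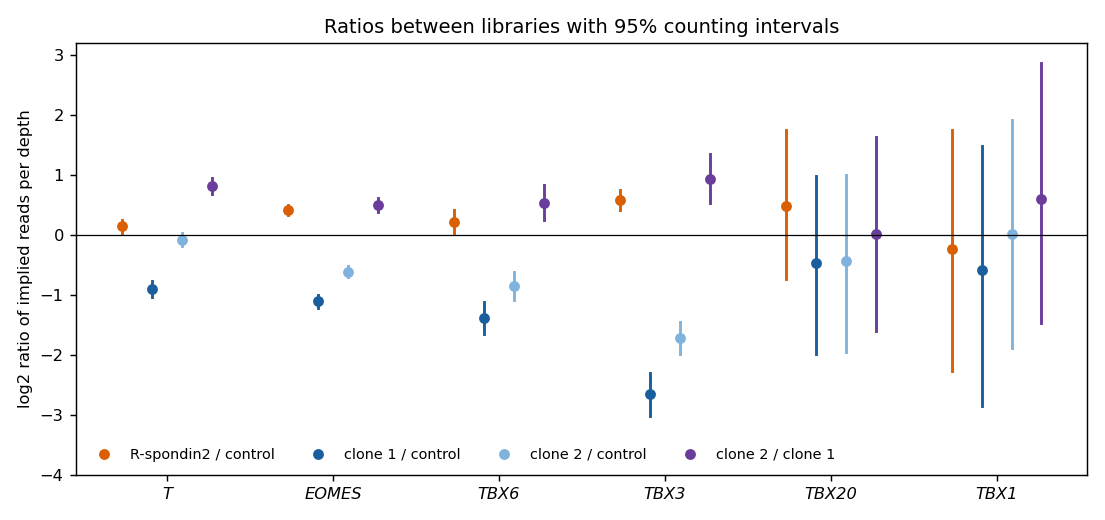
Log2 ratio of implied reads between libraries (vertical axis), scaled by estimated depth, for 6 T-box genes, with points for the ratio and lines for the 95% counting interval. TBX3 lies lowest in both clones against control, at -2.66 and -1.71, while the intervals of TBX20 and TBX1 all include 0; TBX2 and TBX5 have 0 reads in some libraries and are not drawn.

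The low genes were read from few fragments. TBX20, a heart regulator, was at 0.66 FPKM in control, 0.95 FPKM with R-spondin2, 0.49 FPKM in clone 1 and 0.50 FPKM in clone 2, from 11, 15, 8 and 8 implied reads. Every counting interval between its libraries included 0, the one for R-spondin2 against control running from -0.74 to 1.75 on the log2 scale. TBX1 was at 0.49, 0.38, 0.30 and 0.47 FPKM in the same order, from 4 to 6 implied reads, and no difference was detectable. Exons of TBX1 share 280 bases with GNB1L on the opposite strand, and the library kit named in the labels does not mark strand, so that reads in the shared part cannot be assigned.

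TBX2, the close relative of TBX3, was at 0.10 FPKM in control, 0.40 FPKM with R-spondin2, 0.03 FPKM in clone 1 and 0.00 FPKM in clone 2. These values correspond to 3, 12, 1 and 0 implied reads. The ratio of R-spondin2 to control was 2.04 on the log2 scale with a wide interval of 0.15 to 4.50. For clone 1 against control the interval ran from -7.30 to 2.06, and no ratio is given for clone 2, where a count of 0 allows up to 0.102 FPKM (3 reads), a limit of counting error only. Of TBX2 exons, 28 bases are shared with an antisense gene. TBX5, known for heart and forelimb, was listed at 0.06 FPKM in control, about 1 read on its shortest transcript and 2 on its longest, and at 0.00 FPKM in the other libraries, where up to 0.157 FPKM would go undetected. Exons of TBX5 share 252 bases with TBX5-AS1 on the opposite strand. Of the 31 counting intervals computed for the 8 genes, 16 left out 0. Of these, 15 belonged to EOMES, T, TBX6 and TBX3 and 1 to TBX2. The intervals were not adjusted for their number. They were not computed for the whole table, so no share over all genes stands beside this count. Such intervals narrow with more reads, and EOMES, T, TBX6 and TBX3 had more implied reads than the other members in every library. The count therefore does not set the T-box genes apart from other genes.

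Differences were next set beside those of all genes, as log2(FPKM + 1), on which a low gene's difference comes out smaller than its true fold. With R-spondin2, EOMES differed from control by 0.41, T by 0.14, TBX6 by 0.22 and TBX3 by 0.56. The median of the 4 was 0.32, against -0.01 over all genes tested, of which 47.8% were higher with R-spondin2. None of the 4 reached a 2-fold difference, which 28 of the 12697 genes did (0.221% in either direction). TBX3 was higher than 99.3% of all genes in this difference, EOMES higher than 98.0%, TBX6 higher than 90.0% and T higher than 82.1%. The SD of the difference across all genes was 0.213, so that T lay within 1 SD and TBX6 at about 1 SD of the table. No replicate of either library exists to say how far such a difference varies between cultures.

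Against the same control library, the clones gave differences of the opposite sign, and these comparisons share that library. In clone 1 the differences were -2.20 for TBX3, -1.30 for TBX6, -1.09 for EOMES and -0.89 for T. Thus TBX3, TBX6 and EOMES were at least 2-fold lower in clone 1, where 2.26% of all genes were. In clone 2 the differences were -1.49 for TBX3, -0.81 for TBX6, -0.60 for EOMES and -0.08 for T. Only TBX3 was at least 2-fold lower there, against 1.17% of all genes, and it was the 1 gene of the 4 at least 2-fold lower in both clones, against 1.08% of all genes. As the mean of both clones, TBX3 differed from control by -1.85 ± 0.50 (SD, n = 2 clones), TBX6 by -1.05 ± 0.35, EOMES by -0.85 ± 0.35 and T by -0.48 ± 0.57. For T the SD between clones exceeded the difference itself. Among all genes tested, 26 had a lower mean difference than TBX3, 190 a lower one than TBX6, 290 a lower one than EOMES and 710 a lower one than T. Pluripotency markers were higher in both clones than in control, as summed above. LGR4 RNA was lower in clone 1 than in clone 2, as was the RNA of all 4 T-box genes. Any relation between these levels was not tested.

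**Figure D3:**
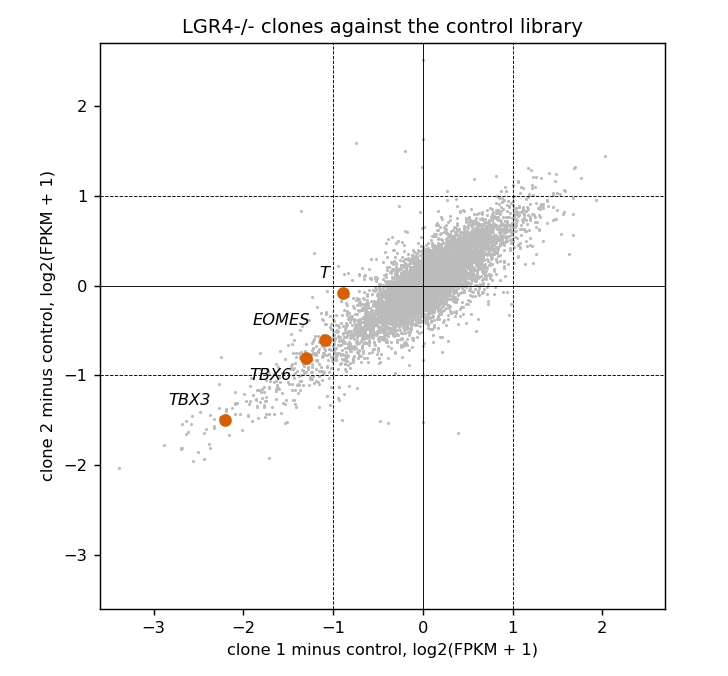
Difference of log2(FPKM + 1) from control in LGR4-/- clone 1 (horizontal) and clone 2 (vertical) for the 12697 genes tested (gray) with EOMES, T, TBX6 and TBX3 in orange; dashed lines mark 2-fold, and both axes share the control library. TBX3 lies at -2.20 and -1.49, past 2-fold in both, and T lies at -0.89 and -0.08, close to 0 on the vertical axis.

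The 2 clones also differed from each other. All 4 higher genes stood above clone 1 in clone 2, by 0.81 for T, 0.71 for TBX3, 0.50 for TBX6 and 0.49 for EOMES. The SD of this difference across all genes was 0.222, and 49.2% of genes were higher in clone 2. No T-box gene reached 2-fold, which 0.252% of genes did in either direction. Only 56 of the 12697 genes had a larger positive difference than T. In counting terms the log2 ratio of clone 2 to clone 1 was 0.82 for T (interval 0.69 to 0.95), 0.94 for TBX3 (interval 0.54 to 1.36), 0.54 for TBX6 (interval 0.24 to 0.84) and 0.50 for EOMES (interval 0.38 to 0.62).

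Because the genes differed by unequal amounts, the make-up of the T-box RNA shifted between libraries. The FPKM of the 8 genes summed to 228.9 in control, 287.3 with R-spondin2, 105.3 in clone 1 and 163.5 in clone 2. EOMES made up 51.3% of the sum in control, 54.6% with R-spondin2, 51.9% in clone 1 and 47.2% in clone 2. The share of T was 30.7%, 27.1%, 35.7% and 40.7% in the same order, highest in the clones. TBX3 made up 5.73% in control and 6.89% with R-spondin2, but 1.97% and 2.45% in clones 1 and 2.

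The ratio of T to EOMES, taken within each library, does not depend on the depth of the library. It was 0.598 in control, 0.496 with R-spondin2, 0.688 in clone 1 and 0.863 in clone 2. Against control, the log2 change of this ratio was -0.27 with R-spondin2 (exact 95% interval of the odds ratio of implied reads, -0.40 to -0.14), 0.20 in clone 1 (0.03 to 0.37) and 0.53 in clone 2 (0.38 to 0.68). T therefore differed from control by a smaller factor than EOMES in each library, beyond counting error. The ratio of TBX3 to EOMES was 0.112 in control, 0.126 with R-spondin2, 0.0379 in clone 1 and 0.0520 in clone 2. Its log2 change was -1.56 in clone 1 (interval -1.93 to -1.18) and -1.10 in clone 2 (interval -1.40 to -0.82), so that TBX3 was below control by a larger factor than EOMES. For the ratio of TBX6 to EOMES, the 3 intervals against control all included 0, reaching from -0.40 to 0.01 with R-spondin2, from -0.57 to 0.01 in clone 1 and from -0.50 to 0.01 in clone 2.

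**Figure D4:**
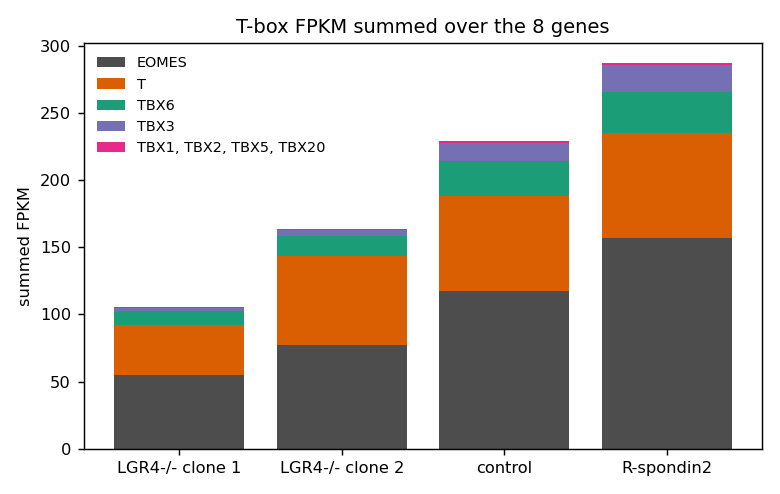
FPKM summed over the 8 T-box genes (vertical axis) in each of the 4 libraries, stacked by gene. The sum runs from 105.3 in clone 1 to 287.3 with R-spondin2, and T takes its largest share, 40.7%, in clone 2.

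Of 9 other T-box genes listed, 8 had a row, and TBX21 was not analysed here. MGA, a large protein with both a T-box and a second DNA-binding domain, was at 6.21 FPKM in control, 6.01 FPKM with R-spondin2, 6.89 FPKM in clone 1 and 7.32 FPKM in clone 2, above TBX3 in both clones. TBX10 was at 1.44, 1.11, 1.44 and 0.95 FPKM in the same order. These 2 genes passed the filter and neither differed 2-fold in any comparison, as held for most genes tested. TBR1, TBX4, TBX15, TBX18, TBX19 and TBX22 were below 1 FPKM in every library, with TBX22 the highest at 0.90 FPKM in clone 2.

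T-box proteins recruit co-repressors of the TLE family, in part through RIPPLY proteins, which turn T-box activators such as TBX6 into repressors. Of 8 such genes, 6 passed the filter, and none of these 6 reached 2-fold in any comparison. Over all genes tested, 0.221% reached it with R-spondin2 and 1.08% were at least 2-fold lower in both clones. A count of none among 6 genes cannot be told apart from these shares. The median difference of the 6 was -0.06 with R-spondin2 and -0.06 in the mean of both clones. TLE3 was the lowest in the mean of both clones (37.0 FPKM in control, 23.7 FPKM in clone 1 and 26.2 FPKM in clone 2). The highest was TLE2 (2.58, 4.16 and 3.79 FPKM). TLE2 was also the lowest with R-spondin2, at -0.36, and TLE3 the highest, at 0.11. RIPPLY3 was the lowest in clone 1, at -0.64, and TLE4 had the largest difference of clone 2 over clone 1, at 0.42. RIPPLY2, whose mean was below the filter, was at 1.72 FPKM in control, 1.24 FPKM with R-spondin2, 0.34 FPKM in clone 1 and 0.17 FPKM in clone 2. Its differences, -1.02 in clone 1 and -1.22 in clone 2, were past 2-fold in both. RIPPLY2 was named after its values were seen, and no counting interval was computed for these low levels. RIPPLY1, also below the filter, was at 0.96, 0.96, 0.00 and 0.22 FPKM.

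Among 11 genes that act upstream of T and EOMES, 1 was at least 2-fold lower in both clones and none reached 2-fold with R-spondin2. Of all genes tested, 1.08% were at least 2-fold lower in both clones, and 0.221% differed 2-fold with R-spondin2 in either direction. BMP4, a ligand that induces the streak, was at 67.4 FPKM in control, 98.3 FPKM with R-spondin2, 9.65 FPKM in clone 1 and 22.5 FPKM in clone 2. It was the highest of the list with R-spondin2 (0.54), the lowest in both clones and the furthest above clone 1 in clone 2 (1.14). WNT3, the ligand that starts T expression in the epiblast, was at 21.2, 25.6, 10.9 and 16.7 FPKM. NODAL, which acts on EOMES, was at 84.2 FPKM in control and did not follow the T-box genes, with 91.7 FPKM with R-spondin2, 90.8 FPKM in clone 1 and 124.35 FPKM in clone 2. TCF7L1, a repressor of WNT targets, was lowest with R-spondin2 (28.2 to 18.7 FPKM, a difference of -0.57) and highest in clone 1 (51.1 FPKM, 0.83). FGF4 was highest in clone 2, at 22.1 FPKM against 13.2 FPKM in control. The median of the 11 was 0.12 with R-spondin2 and -0.02 in the mean of both clones, beside -0.01 and 0.02 over all genes.

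Genes that act with or downstream of T, EOMES and TBX6 in streak and presomitic mesoderm were mostly lower in the clones. Of 25 listed, 24 passed the filter, and 11 were at least 2-fold lower in both clones, against 1.08% of all genes. The 11 were MESP1, MESP2, DLL1, DLL3, WNT8A, SNAI2, CER1, CDX2, HES7, FOXC1 and APLNR. HES7 passed the filter only through control and R-spondin2 (2.64 and 1.90 FPKM). It was at 0.27 FPKM in each clone. The list was chosen with earlier results of these data known, so neither its count nor the level of HES7 is a test. The list median was -1.28 in the mean of both clones, beside 0.02 over all genes. In that mean 22 of the 24 were lower than control, beside 46.4% of all genes. MESP1, an early mesoderm factor, had the largest difference (38.45 FPKM in control, 5.64 FPKM in clone 1 and 13.4 FPKM in clone 2). Its excess in clone 2 over clone 1, 1.12, was also the largest. MESP2, a segmentation gene activated by TBX6, went from 12.5 FPKM in control to 2.02 and 3.25 FPKM in clones 1 and 2, the lowest of the list in clone 2. DLL1, a Notch ligand of presomitic mesoderm, was at 6.07, 1.65 and 1.77 FPKM. FOXA2, which lies downstream of EOMES in endoderm, was higher in both clones (9.05, 11.9 and 11.6 FPKM), and so was LFNG, a modifier of Notch (7.13, 10.4 and 7.88 FPKM). With R-spondin2 16 were higher and 8 lower, with a median of 0.10, while 47.8% of all genes were higher. MESP1 was highest, at 57.3 FPKM or a difference of 0.56, and CDX2 lowest, from 8.80 to 5.89 FPKM or -0.51. MSGN1, another TBX6-linked presomitic gene, was at 6.64 FPKM in control, 7.23 FPKM with R-spondin2, 1.41 FPKM in clone 1 and 2.86 FPKM in clone 2, just short of 2-fold in clone 2 at -0.98.

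Heart partners and targets of the later T-box genes were measurable although TBX5 itself was at 0.06 FPKM or less. Of 14 listed, 11 passed the filter, and NKX2-5, GATA4, GATA6, HAND1 and MYL7 were at least 2-fold lower in both clones. Over all genes tested this share was 1.08%. NKX2-5 passed the filter mainly through control and R-spondin2 (3.56 and 3.94 FPKM), with 0.34 and 1.09 FPKM in clones 1 and 2. The list was chosen with earlier results of these data known, so its count is no test. HAND1, a factor of extraembryonic and lateral plate mesoderm, was the lowest, with 70.05 FPKM in control, 8.59 FPKM in clone 1 and 19.8 FPKM in clone 2. For HAND1, clone 2 exceeded clone 1 by 1.11. GATA4 was at 40.5, 8.05 and 15.05 FPKM and GATA6 at 140.6, 39.5 and 61.2 FPKM. MYL7, an atrial myosin light chain, was at 37.5 FPKM in control, 58.4 FPKM with R-spondin2, 7.34 FPKM in clone 1 and 13.2 FPKM in clone 2. NPPA, a natriuretic peptide gene repressed by TBX2 and TBX3 in the developing heart, was the highest with R-spondin2, from 2.00 to 4.80 FPKM or 0.95. SALL4, a partner of TBX5 that is also a pluripotency factor, was the 1 gene of the list that was lower with R-spondin2 (46.1 and 41.6 FPKM) and higher in the clones (58.55 and 56.6 FPKM). The list median was 0.39 with R-spondin2 and -1.15 in the mean of both clones.

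**Figure D5:**
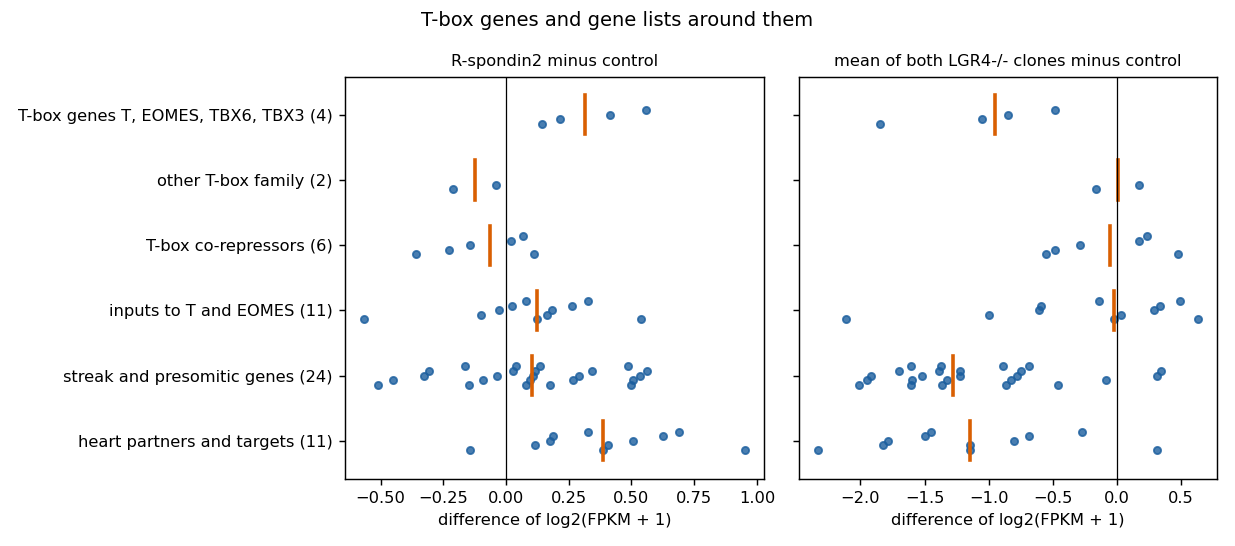
Difference of log2(FPKM + 1) (horizontal axes) for each gene that passed the filter, in the R-spondin2 library (left) and in the mean of both LGR4-/- clones (right), each against the same control library; points are genes, spread vertically for display, orange bars are list medians, and the number of genes is in parentheses. The medians of the T-box genes are 0.32 and -0.95, and those of the heart list are 0.39 and -1.15, while the 6 co-repressors that passed have medians of -0.06 in both.

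The genes most like each T-box gene were found by the distance between log2(FPKM + 1) values over the 4 libraries, each gene centred on its own mean. With 4 libraries this likeness is a description and rests on few points. For EOMES the 3 nearest of all genes tested were NTN1, a guidance ligand (distance 0.007), FAM167A (0.062) and MIXL1, a homeobox gene of the streak (0.077). NTN1 was at 14.3 FPKM in control, 19.2 FPKM with R-spondin2, 6.16 FPKM in clone 1 and 9.07 FPKM in clone 2. For TBX6 they were TNC, an extracellular matrix gene (0.050), GADD45A (0.061) and KLF6 (0.069). For TBX3 they were MYL7 (0.065), the collagen gene COL5A2 (0.091) and HOXB6 (0.098). For T the nearest lay farther away, at MERTK (0.181) and RAB32 (0.188). Among the T-box genes themselves, EOMES and TBX6 were closest (0.177), and T and TBX3 farthest apart (1.601).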

How the data were processed

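The authors deposited FPKM for 4 libraries, 1 file each, given to 2 decimals with NCBI gene identifiers, RefSeq transcripts and annotation text. The submitters' processing notes list BWA, Bowtie, RSEM and hg19, with no roles or versions. Filters and strand settings are not given in the sources used here. Depth therefore had to be estimated from FPKM below 0.6 of genes with 1 transcript under 1500 bases, using GENCODE release 29 lengths, and 8068 genes had a single transcript of known length. Wrong lengths would shift it. Differences were of log2(FPKM + 1), the pseudocount taken from the study's methods, for genes averaging 1 FPKM or more. Past 2-fold means a difference of at least 1, in both clones and in the same direction where both are named. No test was run. The lists and the rule for named genes (all members, the extremes of each list, genes 2-fold lower or higher in both clones, 3 nearest genes for a mean of at least 5 FPKM) were chosen with earlier results of these data known. MSGN1, WNT3, NODAL, RIPPLY1, RIPPLY2 and TBX22 fell outside the rule and were named after their values were seen. 1 gene that the rule names is not reported here. Motifs were also chosen with results known. Coordinates are of GRCh38, not the authors' build. The labels give no batch. Scripts were tested on simulated data. Computations used Python 3.11.15, numpy 2.4.6, scipy 1.17.1, pandas 2.3.3 and matplotlib 3.10.9.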

Additional observations from a re-analysis of the deposited data

How the results depend on the processing

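The differences of EOMES, T, TBX6 and TBX3 kept their sign under a pseudocount of 0.1 FPKM, no filter, a filter of a mean of at least 5 FPKM, rescaling by median ratio and each clone left out. A filter cannot alter the difference of a single gene, and with 2 clones the value without 1 of them is that of the other, so only the pseudocount and the rescaling bear on single genes. The difference of T was -0.89 without clone 2 and -0.08 without clone 1. At 1.5-fold in place of 2-fold, 3 of the T-box genes (TBX3, TBX6 and EOMES) were lower in both clones. In clone 2, 2 (T and TBX3) were higher than in clone 1, and none passed 1.5-fold with R-spondin2. Of the 12697 genes tested, 254 passed it for R-spondin2, 724 for the clones and 306 for clone 2 against clone 1. These counts of all genes take in both directions. Without clone 2, 3 T-box genes, all lower, and 447 of all genes in either direction were past 2-fold, 287 of the latter lower. Without clone 1 it was 1 T-box gene, also lower, and 191 of all genes, 149 of them lower. The median of the T-box genes in the clones was -1.20 without clone 2 and -0.70 without clone 1. With no filter, the medians of all 8 were -0.32 in the clones and 0.33 in clone 2 against clone 1. With the pseudocount of 0.1 FPKM, 139, 345 and 141 of all genes were past 2-fold in either direction, against 28, 167 and 32. With a mean of at least 5 FPKM, 14 were for R-spondin2 and 12 for clone 2 against clone 1. No paired analysis was possible because each of control and R-spondin2 had 1 library. Depth limits TBX1, TBX2, TBX5 and TBX20.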
